A study of Mus musculus with 4 samples.

Results

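Clusters of distal peaks are described here: 3017 peaks in 395 regions, drawn from a list of 26496 peaks of chromatin labelled near PML bodies in mouse embryonic stem cells. A peak was distal when its midpoint lay more than 1 kb from the 5′ end of every protein-coding gene of GENCODE M21, and only autosomal peaks were taken. Distal peaks were joined over gaps up to a fixed limit, the one in common use for super-enhancers: the widest gap that was joined measured 12499 bp and the narrowest that was not 12509 bp. Joined regions with 5 or more peaks were kept. A stretch each of chromosome 4 with zinc finger genes, of chromosome 13 with histone genes and of chromosome 1, which together hold 598 autosomal peaks, were left out. Of the 17194 distal peaks that remained, 3017 (17.5%) were in regions and 14177 were not. These members make up 11.4% of the whole list. The position and the number of peaks therefore chose the regions, and those values are given below as a description with no test.

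The cells were E14 mouse embryonic stem cells of the genotype APEX-PML knockin, in which the peroxidase APEX is fused to the PML protein made from its own locus. All 4 samples carried the knock-in and grew in medium with CHIR99021, which inhibits GSK3, PD0325901, which inhibits MEK, and leukemia inhibitory factor (LIF). In 2 samples H2O2 was added, which lets APEX put biotin on nearby chromatin, and in the other 2 it was omitted as the negative control. The labels name no separate clones or cultures. The peak list is merged and carries no value for any sample, so H2O2-treated cells were not compared with cells without H2O2, and the depth behind a peak is unknown.

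PML bodies are nuclear compartments built by the PML protein and its SUMO-modified partners, and genes that are active in a cell are often found near them. Enhancers are stretches of DNA away from promoters at which transcription factors assemble and raise the output of a gene, and in embryonic stem cells OCT4, SOX2, NANOG, KLF and ESRRB proteins are known to act there. Enhancers that lie close together around genes of cell identity are often joined over a fixed gap into longer units called super-enhancers. The regions were built from peak positions in the same manner, without any mark of enhancer activity, so nothing in these data says whether a region is an enhancer.

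The DNA of a few member peaks is shown first because the counts below turn on the letters they hold. The word ATGCAAAT is the octamer bound by OCT4, ACAATG is the core word of SOX proteins, and the OCT4-SOX2 composite joins parts of both words, where the proteins bind side by side. The composite was found in 4 member peaks, each in a region of its own and each between genes. They lay nearest to the 5′ ends of Mreg (chr1:72229027-72229467, 441 bp), Zfp64 (chr2:168959369-168959886, 518 bp), Adgrb2 (chr4:129966333-129966511, 179 bp) and Sall1 (chr8:89003396-89004014, 619 bp). They are named because they hold the composite and were chosen after their values were seen. The central 200 bp of each is printed on the plus strand of GRCm38, 5′ to 3′, with the composite in capitals. It reads on the minus strand at Mreg, Zfp64 and Sall1 and on the plus strand at Adgrb2.
Mreg: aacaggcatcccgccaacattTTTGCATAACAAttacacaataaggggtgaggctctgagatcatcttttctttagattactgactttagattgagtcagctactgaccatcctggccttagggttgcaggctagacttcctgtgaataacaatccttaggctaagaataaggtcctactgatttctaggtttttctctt
Zfp64: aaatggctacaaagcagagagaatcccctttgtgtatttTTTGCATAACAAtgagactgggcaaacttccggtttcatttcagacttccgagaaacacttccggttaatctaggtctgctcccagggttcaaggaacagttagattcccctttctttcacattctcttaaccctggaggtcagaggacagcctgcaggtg
Adgrb2: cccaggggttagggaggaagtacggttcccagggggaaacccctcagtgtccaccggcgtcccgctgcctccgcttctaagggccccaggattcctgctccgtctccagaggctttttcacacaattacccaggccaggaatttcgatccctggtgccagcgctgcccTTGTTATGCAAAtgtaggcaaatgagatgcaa
Sall1: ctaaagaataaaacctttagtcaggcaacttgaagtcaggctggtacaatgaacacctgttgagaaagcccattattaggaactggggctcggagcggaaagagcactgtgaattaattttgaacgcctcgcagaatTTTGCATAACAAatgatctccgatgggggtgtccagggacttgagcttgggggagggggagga

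Further peaks come from regions at genes of pluripotency and of its signals. The peak shown for a region was chosen for the octamer and SOX words it holds, so these peaks do not typify their regions. In the regions at Tbx3, Tdgf1, Fgf4, Tet2, Trim28, Pim1 and Id3 no member peak held either word in its central 200 bp. In the regions at Tet1 (chr10:62902990-62903145, 156 bp, in an intron) and Ccnd1 (chr7:144941236-144941897, 662 bp, between genes) the octamer, in capitals, was in the central 200 bp of the peak shown. In the regions at Pou5f1 (chr17:35490440-35490615, 176 bp, between genes) and Sox2 (chr3:34653800-34654193, 394 bp, in an intron of an overlapping noncoding gene) the SOX word, in capitals, was. The Tet1 peak was the only one with an octamer among the 95 member peaks of the regions at core pluripotency genes.
Tet1: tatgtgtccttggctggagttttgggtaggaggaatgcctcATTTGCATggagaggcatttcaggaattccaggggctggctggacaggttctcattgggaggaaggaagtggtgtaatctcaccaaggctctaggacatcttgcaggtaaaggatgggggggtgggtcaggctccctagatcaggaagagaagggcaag
Ccnd1: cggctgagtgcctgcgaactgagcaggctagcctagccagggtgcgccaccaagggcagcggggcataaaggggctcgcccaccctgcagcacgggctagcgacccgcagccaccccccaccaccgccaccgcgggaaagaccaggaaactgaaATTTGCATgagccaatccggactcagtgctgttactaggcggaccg
Pou5f1: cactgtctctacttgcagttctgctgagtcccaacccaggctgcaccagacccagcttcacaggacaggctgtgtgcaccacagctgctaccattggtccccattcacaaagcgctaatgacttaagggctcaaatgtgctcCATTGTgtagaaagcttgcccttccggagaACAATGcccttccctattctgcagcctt
Sox2: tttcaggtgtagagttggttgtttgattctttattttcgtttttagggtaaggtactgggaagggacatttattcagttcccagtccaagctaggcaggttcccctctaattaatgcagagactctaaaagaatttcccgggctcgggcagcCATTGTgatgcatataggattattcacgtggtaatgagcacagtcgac

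One region covered a microRNA cluster. MicroRNAs of the miR-290 cluster are abundant in mouse embryonic stem cells and share related seeds, the bases at positions 2 to 8 that pair with target RNAs. The seeds are in capitals in the mature sequences of RefSeq for GRCm38. Not every mature arm of the cluster is shown. Among the 3p arms shown, those of miR-294 and miR-295 share the seed AAGUGCU, while those of miR-290a and miR-291b end it with another letter and that of miR-293 differs.
mmu-miR-290a-3p: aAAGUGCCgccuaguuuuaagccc
mmu-miR-291b-3p: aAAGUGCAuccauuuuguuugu
mmu-miR-293-3p: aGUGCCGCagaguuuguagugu
mmu-miR-294-3p: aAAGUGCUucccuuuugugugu
mmu-miR-295-3p: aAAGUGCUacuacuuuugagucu

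The miR-290 region ran over chr7:3193081-3222744 and held 15 peaks of 141 to 1048 bp, which covered 23.3% of it. Of these, 10 lay upstream of the hairpins, between genes, and 5 lay among or just beyond them. The widest, of 1048 bp at 3221697 to 3222744, lay past the miR-295 hairpin, and one of 807 bp at 3217474 to 3218280 lay just before the miR-290a hairpin. No protein-coding 5′ end lay inside the region, and the nearest, of AU018091, was 23878 bp away. In all, 24 of the 919 autosomal hairpins in the RefSeq table lay in 13 regions. Others included miR-182, miR-96 and miR-183, which are made together and lay in 1 region of 7 peaks, miR-196b in a region of the Hoxa genes, miR-9-2, miR-181d and miR-200b. The hairpins are not all separate loci, since some, such as miR-290a and miR-290b, overlap on opposite strands. Many of them belong to the miR-290 region. No matched background was computed for hairpins. Of autosomal protein-coding genes, 0.913% had the 5′ end inside a region.

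The 395 regions together spanned 9.57 Mb, and their peaks covered 0.922 Mb, or 9.63% of that length. The median region held 6 peaks over 21223 bp (quartiles 14833.5 and 29993 bp), and lengths ran between 3704 and 143368 bp. There were 148 regions with exactly 5 peaks, 75 with 6, 56 with 7 and 116 with 8 or more. The regions of 5 had a median length of 16299.5 bp and a median peak width of 244 bp. Just outside the rule were 282 joined regions of 4 peaks, with medians of 11584.5 bp and 237 bp. The gap between neighbouring members had a median of 2089.5 bp, and 897 of 2622 gaps (34.2%) were 1 kb or less. Single distal peaks with no neighbour in reach numbered 7416.

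**Figure D1:**
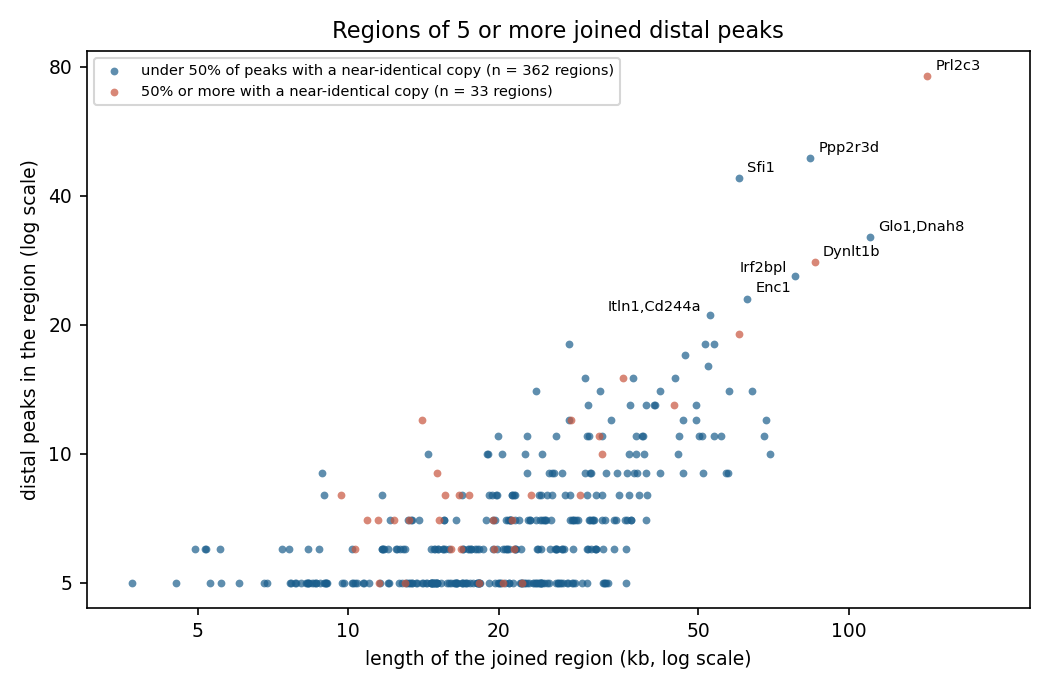
Each point is 1 of the 395 regions, placed by its length in kb and by its number of distal peaks, both on log scales. Red points are the 33 regions in which 50% or more of the peaks have a near-identical copy elsewhere in the genome, blue points the other 362; regions of 20 or more peaks carry the name of the nearest protein-coding gene, led by Prl2c3 with 76 peaks and Ppp2r3d with 49.

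The 4 regions with the most peaks lay at genes outside the gene lists. Prl2c3, of the prolactin family, lay in a region of 76 peaks over 143368 bp (chr13:12797672-12941039), but 58 of these peaks have a near-identical copy elsewhere. Ppp2r3d, which encodes a regulatory subunit of protein phosphatase 2A, lay in one of 49 peaks with 12 such copies (chr9:124408294-124492005). A region of 44 peaks whose nearest gene was Sfi1, a centriole protein gene 9308 bp away, stood apart in coverage (chr11:3123844-3184155). Its peaks had a median width of 771.5 bp and covered 68.8% of its length, where the median region was covered to 9.34%, and 8 of them have a copy. Copies were sought in the assembly alone, so any that it lacks would not be counted, and their part in this coverage was not tested. The 32 peaks at Glo1, the glyoxalase gene, and Dnah8, a dynein gene, had no copy and spread over 110221 bp (chr17:30579625-30689845).

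Around Glo1 the regions formed a chain. Over chr17:30456532-30907832, 6 regions with 79 peaks followed each other, among them the 15 peaks at Glp1r, the receptor gene for glucagon-like peptide. Their median width was 173 bp, no peak had a copy, and none held the octamer. A shorter chain of 2 regions and 39 peaks, with a median width of 207 bp, lay at Irf2bpl (chr12:86795997-86945387), and it too held no copy and no octamer. The octamer was rare in all members, at 2.19%, and only 59 of the 395 regions held it, so its absence does not set these chains apart. Lncenc1, a long noncoding RNA gene of naive embryonic stem cells, had its 5′ end in a region of 23 peaks (chr13:97432570-97495276). The nearest protein-coding gene to that region, Enc1, was 191465 bp away. Regions at Etv5 (17 peaks) and at Epop and Mllt6 (16 peaks) followed further down. Epop encodes a partner of Polycomb repressive complex PRC2.

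Regions in which 50% or more of the peaks have a copy, among them those at Dynlt1b (28 peaks), Gm10767 (19) and Vmn1r3 (15), are described below. The other regions among the 20 with the most peaks lay at Itln1 and Cd244a (21 peaks), near Zfp936, near St6galnac1, at Hjurp and Trpm8 (18 each), near Olfr161 (15), near Fcgr1 (14) and at Zfp57 with 2410137M14Rik and H2-M5 (14). Zfp936 and St6galnac1 had 8 and 6 peaks with a copy. The most crowded regions for their length were short: 5 peaks in 3704 bp near Tnfrsf18 (chr4:156031418-156035121) and 6 peaks in 4941 bp near Aurkb (chr11:69036946-69041886), the mitotic kinase gene, were among them, as were those at Clstn3, Slc35b4 and Ulk1.

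Chromosome 11 held the most regions, 37, followed by chromosome 4 with 33 and chromosome 17 with 31. The share of distal peaks that lay in regions was 30.2% on chromosome 17, 27.7% on chromosome 13 and 22.0% on chromosome 11, and it was lowest on chromosome 5 (11.2%).

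Core pluripotency genes were often at a region. Of 27 such genes, 13 had their 5′ end inside a region or within 50 kb of one (48.1%, exact 95% interval 28.7 to 68.1%), against 898 of all 20807 autosomal protein-coding genes, a background of 4.32%. Inside a region were 8 of the 27, where the background was 0.913% (190 genes). An excess of distal peaks around pluripotency genes was already known from an earlier description of this list, so these counts are no independent evidence of it. The regions at the 13 genes held 95 of the member peaks, none of them with a copy elsewhere.

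Pou5f1, which encodes OCT4, sat in a region of 7 peaks (chr17:35485677-35509874), with 5 upstream and 2 downstream of its 5′ end. Their midpoints were at -20.1, -15.5, -3.58, -2.03, -1.44, 1.15 and 3.57 kb (positive is downstream), and their widths ran from 133 to 564 bp. Between them lay 2 promoter peaks, which are no members.

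The region at Sox2 also had 7 peaks (chr3:34640818-34668775), 3 upstream and 4 downstream, of 121 to 394 bp. Another region of 6 peaks began 84644 bp downstream of Sox2 and held no gene 5′ end (chr3:34735049-34761726). Its peaks were wider, with a median of 517.5 bp and a widest of 989 bp at 34756106 to 34757094, and 4 of the 6 lay between 106195 and 111006 bp from the 5′ end of Sox2. A distal enhancer cluster is known downstream of Sox2 in mouse embryonic stem cells.

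Tbx3, a T-box factor of naive pluripotency, was the nearest gene to 3 regions with 19 peaks in all. The one that holds its 5′ end had 9 peaks, the widest of 855 bp at 9.59 kb. Klf2, a Krüppel-like factor of the same state, had 5 peaks from -7.88 to 15.5 kb, and Gbx2, a homeobox gene, 5 from -11.0 to 3.79 kb. Sall4, a zinc finger gene, had 9 peaks, of which 6 lay within 6.62 kb downstream of the 5′ end. At Dppa5a the 7 peaks reached 1098 bp in width. At Tdgf1, which encodes the Nodal co-receptor Cripto, the widest of 7 measured 1328 bp and also reached into the promoter window, its midpoint being at -1.54 kb. The 5′ end of Lrrc2 lay inside the Tdgf1 region too.

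At 5 genes the region lay outside the 5′ end and downstream of it. Fgf4, the growth factor gene, had 8 peaks from 4.10 to 25.3 kb, the widest of 1289 bp at 10.4 kb, and no promoter peak. Tet1 and Tet2 encode enzymes that oxidise methylcytosine. The 10 peaks at Tet1 lay from 5.93 to 24.7 kb and the 7 at Tet2 from 10.95 to 29.5 kb, and Tet1 had no promoter peak. Trim28, a corepressor of KRAB zinc finger proteins, had 5 peaks from 7.10 kb onward, and Zfp281 had 9, which began 45.7 kb downstream. The region near Trim28 lay nearest to the 5′ end of another gene, Zbtb45.

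Other core genes were not at a region. Nanog missed the limit by little, with its nearest region 53540 bp away, Esrrb was 93874 bp and Dppa3 134619 bp from one. Klf4, Klf5, Zfp42, Prdm14, Tfcp2l1, Nr5a2, Utf1, Lin28a, Dppa2, Dppa4 and Rif1 completed the 14. The core pluripotency count was lower when regions were built more strictly: 22.2% of the genes were at a region with gaps of 5 kb or less, and 18.5% with 8 peaks needed or with only peaks wider than the list's median of 223 bp, while the share of all genes was 1.65%, 1.31% and 0.956% under the same changes. It was 37.0% when peaks within 1 kb of any transcript start were left out (all genes 3.15%). With peaks over 2.5 kb from gene starts it was 40.7% (3.12%). Looser settings raised it, to 66.7% with gaps of 25 kb (8.09%) and 59.3% with 4 peaks needed (6.70%).

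**Figure D2:**
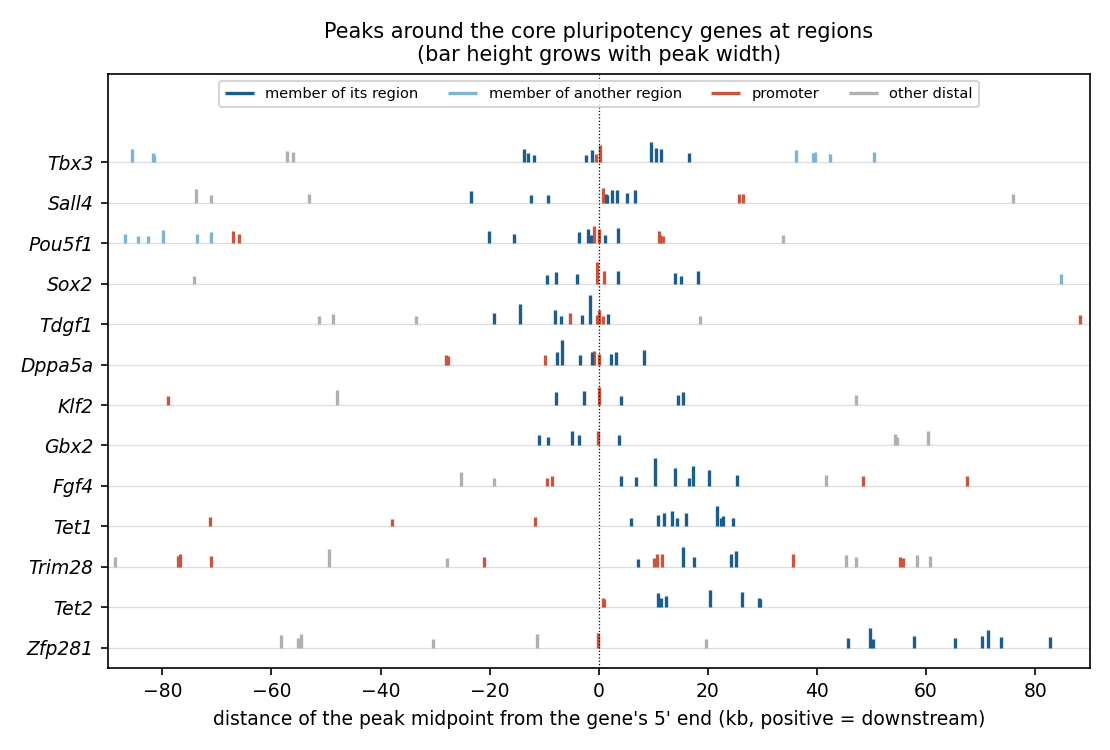
Peaks within 90 kb of the 5′ end of the 13 core pluripotency genes at a region, by the distance of the peak midpoint in kb, positive downstream; each bar is 1 peak and its height grows with the peak's width. Members lie on both sides of the 5′ end at Tbx3, Sall4, Pou5f1, Sox2, Tdgf1, Dppa5a, Klf2 and Gbx2, and downstream of it at Fgf4, Tet1, Trim28, Tet2 and Zfp281.

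Several genes of signalling pathways, some of which the culture medium acts on, were also at regions. Of 34 members and targets of the FGF, LIF, WNT and Nodal pathways, 10 were at a region (29.4%, 15.1 to 47.5%). Among FGF-ERK genes these were Etv5, an ETS factor, Spry1 and Spry4, feedback inhibitors, and Ccnd1, which encodes cyclin D1. Etv5 carried 17 peaks, 16 of them downstream as far as 44.3 kb. Ccnd1 carried 5 within -3.44 and 2.26 kb, packed around a promoter peak of 1040 bp. Of the LIF pathway, Lif itself had 6 peaks, Socs3, its feedback inhibitor, 5 of up to 688 bp, and the STAT3 targets Pim1 and Bcl3 7 and 5. Id3, a BMP target, had 5. Of the WNT pathway genes, Axin2, Sp5, Lef1, Tcf7, Tcf7l1, Nkd1, Cdx1 and T were not at a region. Nor were the FGF-ERK genes Spry2, Dusp4, Dusp6, Etv4 and Egr1, or Stat3, Lifr, Il6st and Pim3 of the LIF pathway. Lefty1, Lefty2, Nodal, Smad3, Smad7, Id1 and Id2 were not at a region either. The share depended on the settings. It was 8.82% with gaps of 5 kb (all genes 1.65%), 50% with 25 kb (8.09%), 14.7% when peaks within 1 kb of any transcript start were left out (3.15%), and 2.94% with 8 peaks needed (1.31%) or with only wider peaks (0.956%).

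Heat shock genes were at a region in 6 of 18 cases (33.3%, 13.3 to 59.0%). Hspa8, which encodes the constitutive HSP70 chaperone, had 12 peaks, 10 of them upstream, and Hsp90ab1 had 14 over a region of 64064 bp. The 5′ ends of Slc29a1 and Mymx lay inside the Hsp90ab1 region too. Hsp90aa1 had 6. The inducible Hspa1a and Hspa1b share 1 region of 5 peaks, which includes one of 2116 bp (chr17:34949506-34951621). Hsf2, a heat shock factor, was 43124 bp from its region. With gaps of 5 kb, or with only wider peaks, 11.1% of the list was at a region, against 1.65% and 0.956% of all genes.

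Counts were small in the remaining lists, and their intervals were wide. Of 19 autosomal genes of PML body components, 3 were near a region and none inside (15.8%, 3.38 to 39.6%). Pml itself had 8 peaks between -30.9 and -22.1 kb, the widest of 1361 bp, but the 5′ end nearest to that region was that of Stoml1. The others were Topors, a ligase of ubiquitin and SUMO, and Usp7, a ubiquitin protease. The region near Topors lay nearest to the 5′ end of Ddx58. Of 12 genes of DNA methylation, 3 were at a region, Tet1 and Tet2 again and Zfp57, the imprint-keeping zinc finger gene, with 14 peaks. Jarid2, a partner of PRC2, with 11 peaks and Cbx7, a PRC1 subunit, with 7 were 2 of 20 polycomb and trithorax genes.

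Gpx4 and Sod2 were 2 of 17 genes of oxidative stress. The 5′ end of Wtap lay inside the Sod2 region too. Cdkn1a, the p53 target that encodes p21, was 1 of 15 in its list, with 13 peaks from -34.1 to 6.48 kb. No peak reached within 1 kb of its outermost annotated 5′ end. A member of 622 bp lay in an exon 2734 bp from that end (chr17:29093400-29094021). Whether another start of the gene lies there was not examined. Mnt was 1 of 12 in the Myc network. Early lineage regulators were at a region in 4 of 20 cases, namely Eomes (7 peaks), Gsc (5), Otx2 (8, the widest 1153 bp) and Zic2 (5, the widest 1140 bp). None of 22 genes of differentiated tissues, mostly liver, blood and muscle, was (0%, upper limit 15.4%). Over all lists, 43 of 212 distinct autosomal genes were at a region.

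**Figure D3:**
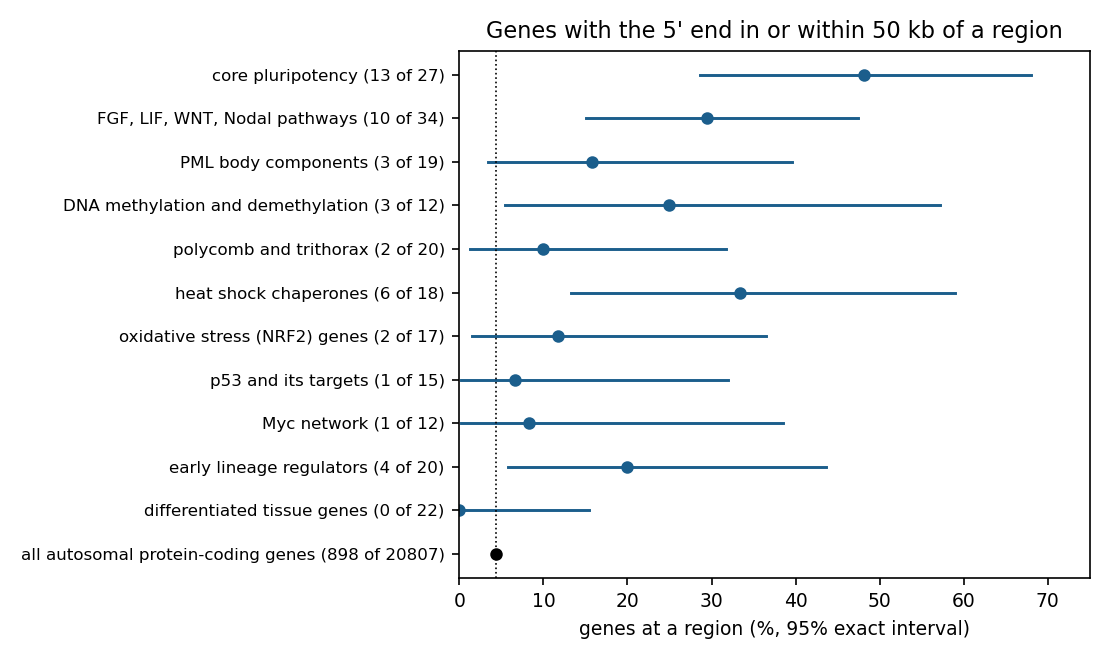
Percent of the genes in each list with the 5′ end in or within 50 kb of a region; lines are exact 95% intervals, counts stand beside the names, and the dotted line marks the 4.32% of all autosomal protein-coding genes. The core pluripotency genes (13 of 27) lie farthest to the right, and none of the 22 differentiated tissue genes is at a region.

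Genes inside the regions often had a peak at the promoter. These values are a description, since they come from the peak list that chose the regions. Of the 190 genes with their 5′ end inside a region, 144 had a peak that shared 1 bp or more with the window 1 kb either side of it (75.8%, 69.1 to 81.7%), against a background of 40.3% of all autosomal genes. Genes outside a region but within 50 kb of one had it in 52.7% of cases (48.9 to 56.4%), and genes farther away in 39.5% (38.8 to 40.2%). Some of these peaks are members, since a distal peak can reach into the window, and at Sod2 and Zfp57 such a member was the only one counted. Without distal peaks, a count added after the data were seen, 137 of the 190 genes inside regions had a promoter peak (72.1%), against 52.1% of those outside within 50 kb, 39.2% of those farther away and 39.9% of all. With gaps of 5 kb the share inside was 92.3% and with 25 kb 63.3%. Of the 43 list genes at regions 33 had a promoter peak, 31 without distal peaks, among them 10 of the 13 core pluripotency genes. The core genes without one were Fgf4, Tet1 and Trim28. Only the outermost 5′ end of each gene was used, so a peak at another start of these genes would not be counted.

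In 142 regions (35.9%) a protein-coding 5′ end lay inside, 77 regions lay within 1 protein-coding gene, 2 regions met both descriptions, and 178 met neither. Of the regions, 339 were within 50 kb of a protein-coding 5′ end and 26 more than 100 kb from any. A noncoding 5′ end lay inside 182 regions. Long regions reach such ends more easily than single peaks do, and no share was computed for other joined peaks. Member peaks were between genes in 46.3% of cases (44.5 to 48.1%) and other distal peaks in 43.4% (42.6 to 44.3%). Introns held 41.9% of members and 45.1% of other distal peaks, and exons 11.9% and 11.5%. A protein-coding 5′ end was within 50 kb of 77.4% of members and 66.9% of other distal peaks, and their median distances to one were 19368 and 25079 bp. Noncoding 5′ ends lay within 1 kb of 8.72% of members and 6.72% of other distal peaks. Alternative starts of protein-coding genes, which the rule counts as distal, were within 1 kb of 9.68% of members and 11.4% of other distal peaks.

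Width and number come from the same readout, so peak widths are a description with no test. Members had a slightly larger median width, though not in the largest regions. Their median width was 222 bp (quartiles 145 and 383 bp), against 212 bp (146 and 331 bp) for other distal peaks. The difference lay in the upper tail: 14.9% of members reached 500 bp, against 8.98% of other distal peaks, and 65 members (2.15%) reached 1000 bp, against 62 other distal peaks (0.437%). The median was larger in members on 15 of 19 autosomes. By the number of peaks in the region the median was 235 bp for 5 to 7, 217 bp for 8 to 12 and 199.5 bp for 13 or more, against 206 bp for single distal peaks, and members of regions with 8 or more had a median of 207 bp, below that of other distal peaks. Among peaks without a near-identical copy the medians were 234 bp in members and 212 bp in other distal peaks.

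A near-identical copy, here a match of the central 150 bp elsewhere in the genome at 95% identity over 80%, was found for 387 members (12.8%) and 922 other distal peaks (6.50%). Such copies were gathered in few regions: 288 of the 387 lay in 33 regions with 357 peaks, led by Prl2c3, Dynlt1b (28 peaks, 26 with a copy), Gm10767 (19 peaks, 18 with a copy) and Vmn1r3 (15 peaks, 9 with a copy). Reads from such copies may be hard to tell apart, which was not tested, so the number of peaks there is uncertain. The other 362 regions held 2660 peaks, and their median length of 21511.5 bp was close to that of all regions.

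The octamer was less frequent in member peaks than in other distal peaks. It was present in the central 200 bp, on either strand, in 66 of 3017 members (2.19%, exact 95% interval 1.70 to 2.78%) and in 578 of 14177 other distal peaks (4.08%, 3.76 to 4.42%). In a logistic regression with GC content and CpG observed/expected as covariates and errors clustered by joined region, the log2 odds were -1.02 ± 0.21 (SE; n = 17194 peaks, two-sided Wald test, adjusted p = 8.45e-06 over 24 motifs). The share was lower in members on 17 of 19 autosomes. The 66 peaks lay in 59 regions, 32 of them between genes, 29 in introns and 5 in exons, 12 had a near-identical copy, and 8 also held the SOX word. At list genes, 1 octamer peak each was in the regions of Pml, Usp7, Etv5, Ccnd1, Hspa8, Hsp90aa1, Otx2, Zic2 and Tet1.

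The SOX word showed the same direction. It was present in 321 members (10.6%) and in 2009 other distal peaks (14.2%), with log2 odds of -0.54 ± 0.11 (SE; n = 17194, logistic regression, adjusted p = 8.45e-06), and its share was lower in members on 18 of 19 autosomes. These were 2 of 24 motifs less frequent in members (8.33%), and 0 of 24 were more frequent (0%). The composite of both words was in 4 members (0.133%) and 45 other distal peaks (0.317%), a difference that did not pass (log2 odds -1.40 ± 0.76 SE, n = 17194, logistic regression, adjusted p = 0.313). With only peaks wider than the list's median both calls ended, with log2 odds of -1.03 for the octamer and -0.45 for the SOX word (logistic regression, n = 576 members, adjusted p = 0.237 each).

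**Figure D4:**
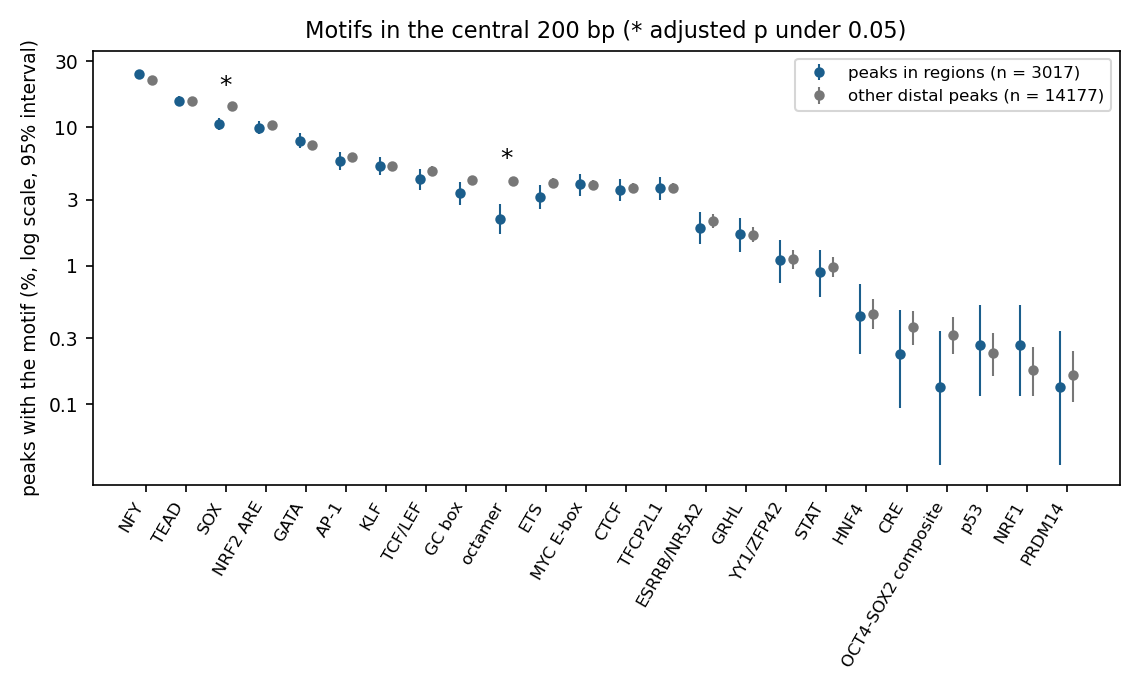
Percent of peaks with each of 24 motifs in their central 200 bp, on a log scale, for the 3017 peaks in regions (blue, left) and the 14177 other distal peaks (grey, right); lines are exact 95% intervals. The 2 marked motifs, the octamer and the SOX word, are lower in the regions (2.19% and 10.6%) than in other distal peaks (4.08% and 14.2%).

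The remaining motifs of pluripotency factors were not called in either direction. The KLF word GGGTGTGG was in 5.27% of members and 5.27% of other distal peaks, and the ESRRB word TCAAGGTCA in 1.89% and 2.12%. The word TTCCNGGAA of STAT factors was in 0.895% of members and 0.980% of other distal peaks. CTCF, the insulator protein, had its longer word in 3.55% and 3.66%. CCAAT, the word of NFY, was the most frequent of all (24.2% of members, 21.9% of other distal peaks; log2 odds 0.17 ± 0.07 SE, n = 17194, adjusted p = 0.142). It was called as more frequent in 4 other settings, among them the central 100 bp (log2 odds 0.31, n = 17194, logistic regression, adjusted p = 0.00387).

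In the 13 regions at core pluripotency genes, 1 of 95 peaks held the octamer (1.05%, 0.0266 to 5.73%), 11 the SOX word (11.6%, 5.92 to 19.8%), 6 the KLF word, 5 the ESRRB word and 2 the STAT word, and none the composite. In the other 382 regions the octamer was in 65 of 2922 peaks (2.22%) and the SOX word in 310 (10.6%). With 95 peaks, the intervals of the regions at core pluripotency genes include the shares of the other regions for both words.

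Across the number of peaks joined together, the octamer share was 4.69% for single distal peaks, 3.25% for pairs, 3.73% for 3, 3.37% for 4, 2.53% for 5 to 7, 2.47% for 8 to 12 and 0.958% for 13 or more. The SOX word was in 15.4% of single peaks, 13.6% of pairs, 11.7% for 3, 11.97% for 4, 10.6% for 5 to 7, 9.77% for 8 to 12 and 11.8% for 13 or more. Single peaks were highest for both words. The class of 13 or more peaks is also the one richest in near-identical copies, at 25.6% of its peaks, and their part in its values was not tested. Without the 20 regions with the most peaks, a comparison added after the data were seen, the log2 odds of the octamer were -0.78 ± 0.21 (SE).

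**Figure D5:**
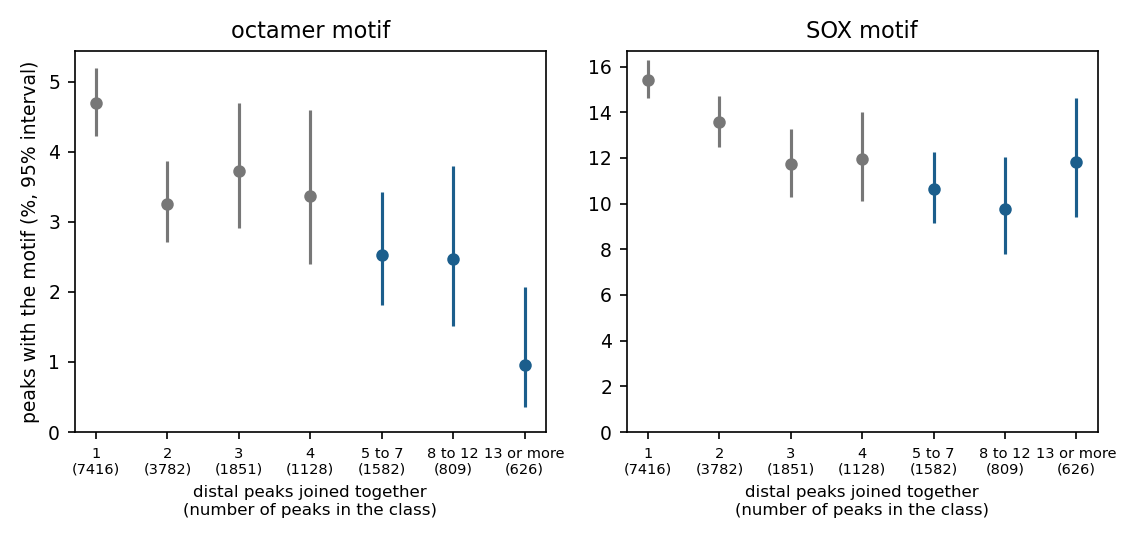
Percent of distal peaks with the octamer (left panel) and with the SOX word (right panel) in the central 200 bp, by the number of distal peaks joined together; lines are exact 95% intervals, blue points are the classes that make up the regions and the number of peaks stands under each class. The octamer share is highest for single peaks (4.69%) and lowest for 13 or more (0.958%), while the SOX share is highest for single peaks (15.4%) and lowest for 8 to 12 (9.77%).

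The sequence between the members of a region served as a local background. Windows of 200 bp were taken at the middle of 1686 gaps of more than 1 kb. The octamer was in 2.19% of members and 1.13% of these windows (0.680 to 1.75%), the KLF word in 5.27% and 2.02%, the ESRRB word in 1.89% and 0.593%, and the CTCF word in 3.55% and 2.25%. The SOX word was in 10.6% and 9.43% (8.08 to 10.9%), and CCAAT in 24.2% and 25.03%. Mean GC content was 51.9% in members and 45.7% in the windows, so these shares are not adjusted for composition.

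Base composition did not pass the test for a difference between members and other distal peaks. Mean GC content was 51.9% ± 8.08 in 3017 members and 52.6% ± 8.27 in 14177 other distal peaks (SD), a difference of -0.63 percentage points (SE 0.38, n = 17194, linear regression, adjusted p = 0.297). CpG observed/expected averaged 0.294 in members and 0.301 in other distal peaks (n = 17194, adjusted p = 0.449), and the repeat-masked share 21.8% and 20.5% (adjusted p = 0.328). None of the 3 measures was called. The direction of the GC and CpG differences turned without near-identical copies (0.0953 percentage points and 0.00789), and both were called as lower in members with gaps of 5 kb (-1.90 percentage points, n = 17194, linear regression, adjusted p = 0.00119, and -0.0287, adjusted p = 0.0295).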

How the data were processed

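Reads were trimmed with Trimmomatic and aligned with Bowtie2 2.3.5.1 to repeat-masked mm10, and blacklist and greylist intervals were taken out with bedtools, per the series' design text and the submitters' processing notes. No source used here gives the peak caller, its threshold or the merging of replicates. The list the authors deposited gives chromosome, start and end only, with no signal and no p-value, so depth per sample is unknown. No peak ran past a chromosome end of GRCm38.p6. Genes were those of GENCODE M21.

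The members, gene lists and motifs were chosen with earlier results of these data known. Named genes are those nearest to the 20 regions with the most peaks, the 5 longest and the 5 densest, and list genes at a region; 1 list gene is not reported here. Fits across all 17194 distal peaks used statsmodels 0.14.6, with errors clustered by joined region and Benjamini-Hochberg adjustment over 24 motifs or 3 composition measures, called at 0.05. Intervals are exact Clopper-Pearson 95% intervals and cover counting error only. Near-identical copies were sought with minimap2 2.31, which skips highly repeated seeds, so some copies may be missed. Alternatives changed the gap, the number of peaks, the distal limit, the peaks, the window, the covariates and the error. Peaks and genes are the units, so p-values measure spread over the genome, not between samples.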

Additional observations from a re-analysis of the deposited data

How the results depend on the processing

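No paired analysis was possible because the list names no sample; for the same reason no replicate could be left out. With gaps of 5 kb there were 181 regions and 1305 members. GC, CpG observed/expected and the repeat-masked share then differed by -1.90 percentage points, -0.0287 and 3.85 percentage points (n = 17194, linear regression, adjusted p = 0.00119, 0.0295 and 0.0266). The genes at a region were 22.2% of core pluripotency, 8.82% of FGF, LIF, WNT and Nodal, 11.1% of heat shock and 1.65% of all genes, and 92.3% of genes inside had a promoter peak. With gaps of 25 kb (636 regions, 5067 members) the 3 composition differences turned to 0.0181, 0.00256 and -0.604, the FGF, LIF, WNT and Nodal share was 50%, that of all genes 8.09% and that of promoter peaks 63.3%. Needing 4 peaks gave 677 regions and 6.70% of all genes. Needing 8 gave 116 regions, 1435 members, a GC difference of -1.70 (n = 17194, adjusted p = 0.0281), 18.5% of core pluripotency, 2.94% of FGF, LIF, WNT and Nodal and 1.31% of all genes. It also called 2 motifs as more frequent, NRF1 (log2 odds 1.83, n = 17194, adjusted p = 0.0265) and CCAAT (0.24, adjusted p = 0.0293), and the TCF/LEF word as less frequent (-0.55, adjusted p = 0.0265). Away from every transcript start, 53.1% of members were between genes, the CpG difference was 0.00162, and 14.7% of FGF, LIF, WNT and Nodal and 3.15% of all genes were at a region. Over 2.5 kb from gene starts, 3.12% of all genes were.

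With only wider peaks there were 83 regions and 576 members, 44.4% of them between genes. No motif was then called as less frequent (0; octamer -1.03, SOX -0.45, logistic regression, n = 576 members, adjusted p = 0.237 each), the repeat-masked difference was -1.43, and the shares at a region were 18.5% of core pluripotency, 2.94% of FGF, LIF, WNT and Nodal, 11.1% of heat shock and 0.956% of all genes. Without near-identical copies the GC and CpG differences turned to 0.0953 and 0.00789 and 3.89% of all genes were at a region. Without the 20 regions with the most peaks, chosen after seeing the data, they were 0.178 and 0.00867. CCAAT was the 1 motif called as more frequent with the central 100 bp, with errors clustered by chromosome and, chosen after seeing the data, with whole peaks and width as a covariate (n = 17194, adjusted p = 0.00387, 0.0303 and 0.0495). Without distal peaks that reach the window, also chosen after seeing the data, 72.1% of genes inside had a promoter peak. Within 20 kb and 100 kb, 2.42% and 7.36% of all genes were at a region. In the settings other than wider peaks both motif calls were kept, with log2 odds of -0.69 to -1.41 for the octamer and -0.41 to -0.69 for the SOX word. The other 131 recomputed values kept their direction and call, or moved less than the limits used. Some limits were loose, so this count does not show that those values were stable. For the median width they ran from -37.3 to 481 bp, 1 SD of single widths either side. The median of 407 bp with only wider peaks, against 222 bp, therefore counted as kept. So did 4145 members with 4 peaks needed, against 3017. The GC, CpG and repeat differences that turned were not called, and the cause was not tested.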

Other observations

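Several regions held the 5′ end of a noncoding RNA gene, which the rule on protein-coding 5′ ends did not use. These genes are named here after their values were seen, and how much of each gene a region covers was not computed. Malat1, an abundant nuclear long noncoding RNA, had its 5′ end in a region of 14 peaks with a median width of 281.5 bp that covered 20.7% of 23673 bp (chr19:5794669-5818341). Neat1, the RNA scaffold of paraspeckles, had its 5′ end in a region of 5 peaks that covered 42.1% of 5302 bp nearby (chr19:5845202-5850503). Meg3, a maternally expressed imprinted RNA, had its 5′ end in a region of 10 peaks (chr12:109524131-109543188). Of the developmental genes outside the lists, Hoxa3, Hoxa5, Hoxa6, Hoxa7 and Hoxa9 shared 1 region of 8 narrow peaks, none above 232 bp (chr6:52203357-52234587). Klf9, a Krüppel-like factor gene, was nearest to 2 regions with 16 peaks.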
